A study of Mus musculus with 9 samples.

Results

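The genes of the inflammasome, of pyroptosis and of necroptosis were examined in fracture callus, as the rows of the expression table that carry the symbols Nlrp3, Pycard, Casp1, Casp4, Gsdmd, Il18, Aim2, Ripk1, Ripk3 and Mlkl. All 10 symbols were found among the 22054 genes of the table, each on 1 row, and all 10 passed the filter on low counts in every comparison. The callus was taken on day 7 after a femoral fracture from male C57BL/6J mice, with no engineered allele named in the sources, aged 7 weeks by the sample labels. Of the 9 libraries, 3 came from mice given H-151 (750 nmol), 3 from mice given SR-717 (30 mg/kg) and 3 from mice given PBS, with every mouse injected intraperitoneally once a day for 1 week in a volume of 200 μl. H-151 is an inhibitor of STING, the adaptor that relays the presence of DNA in the cytosol, and SR-717 is an agonist of it, so that SR-717 against H-151 contrasts an agonist with an inhibitor of the pathway, and PBS buffer is the control. Each library is bulk RNA of a whole callus, in which fewer cells of a type and less RNA per cell cannot be told apart. The labels number the libraries of a group 1 to 3 as biosamples but do not say what a number shares across groups, nor whether animals were pooled. Where they were not separate animals, the p-values below measure only the spread between these libraries, which may be technical.

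Inflammasomes are cytosolic complexes in which a sensor such as NLRP3 or AIM2 gathers the adaptor ASC, the product of Pycard, and through it activates caspase-1. Caspase-1 matures interleukin-1β and the product of Il18 and cleaves gasdermin D, whose fragments open pores in the cell membrane and cause pyroptosis, and the mouse Casp4 product, often called caspase-11, cleaves gasdermin D after it binds bacterial lipopolysaccharide. Necroptosis is a separate lytic death in which the kinases RIPK1 and RIPK3 act on MLKL, which then permeabilizes the membrane. In bone, these genes are best known from myeloid cells such as neutrophils, monocytes and macrophages, and the transcription of Nlrp3 is a classical priming step under NF-κB.

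Levels are given as TPM, the authors' expression value scaled for gene length and library total, which can be compared between genes. Ordered by their median over the 9 libraries, the adaptor gene Pycard stood first at 39.6 TPM, followed by Gsdmd at 27.4, Ripk3 at 26.4, Ripk1 at 20.3, Il18 at 18.3, Mlkl at 10.7, Casp1 at 7.78, Casp4 at 3.97, Aim2 at 2.46 and Nlrp3 at 2.08. Some neighbours in this order kept their places in every library: Pycard lay above Gsdmd, Ripk3 above Ripk1 and Casp4 above Aim2 in 9 of 9. Others could not be ordered, with Gsdmd above Ripk3 in 5 of 9 libraries, Mlkl above Casp1 in 6 of 9 and Aim2 above Nlrp3 in 3 of 9. Most libraries thus carried more message per length for the adaptor and the pore-forming protein than for the 2 sensors. The lowest count of any of the genes in any library was 31 and the highest was 3195.

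The place of Nlrp3 set a single library apart. In SR-717 replicate 1, it ranked 2 of the 10 genes, behind Pycard only, whereas it ranked 8 to 10 in the other 8 libraries. The 10 genes together held 441.0 CPM (counts scaled to a common library total) in SR-717 replicate 1 and 226.2 in PBS replicate 1, against 138.3 to 169.3 in the other 7 libraries. Nlrp3 alone made up 34.9% of the counts of the 10 genes in SR-717 replicate 1 and 13.1% in PBS replicate 1, against 1.40% to 4.75% elsewhere.

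These 2 libraries also stood apart over all genes. On the first principal component, which held 46.6% of the variance of log2 CPM, SR-717 replicate 1 scored 100.6 and PBS replicate 1 scored 38.8, whereas the other 7 libraries lay between -28.8 and -4.03. Library totals ran from 16987388 to 23272479 counts. Markers of osteoblasts, chondrocytes and osteoclasts, the cells that define callus, were found in every library, and no gene of the 12 marker lists was at 0 throughout. SR-717 replicate 1 had the lowest summed TPM of 6 chondrocyte markers (113, against 736 to 7752 in the other 8), of 6 osteoblast markers (7014, against 11270 to 17070) and of 8 osteoclast markers (5211, against 6471 to 10930). It also had the highest sum of 10 neutrophil markers (34070, against 1467 to 12080) and of 10 macrophage and monocyte markers (4188, against 1269 to 2620). A sum follows its most abundant genes and does not show that each marker agreed. In SR-717 replicate 1, S100a8 and S100a9 stood at 8607 and 17042 TPM. Col1a1, at 5941 TPM, made up most of the osteoblast sum and was lowest there. Runx2, at 33.2 TPM, was not (32.1 in H-151 replicate 2). PBS replicate 1 was second highest for macrophage and monocyte markers (2620) and second lowest for chondrocyte markers (736), while its neutrophil sum (9638) was below that of H-151 replicate 1 (12080) and H-151 replicate 2 (10800). The part of these differences in the results below was not tested.

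**Figure D1:**
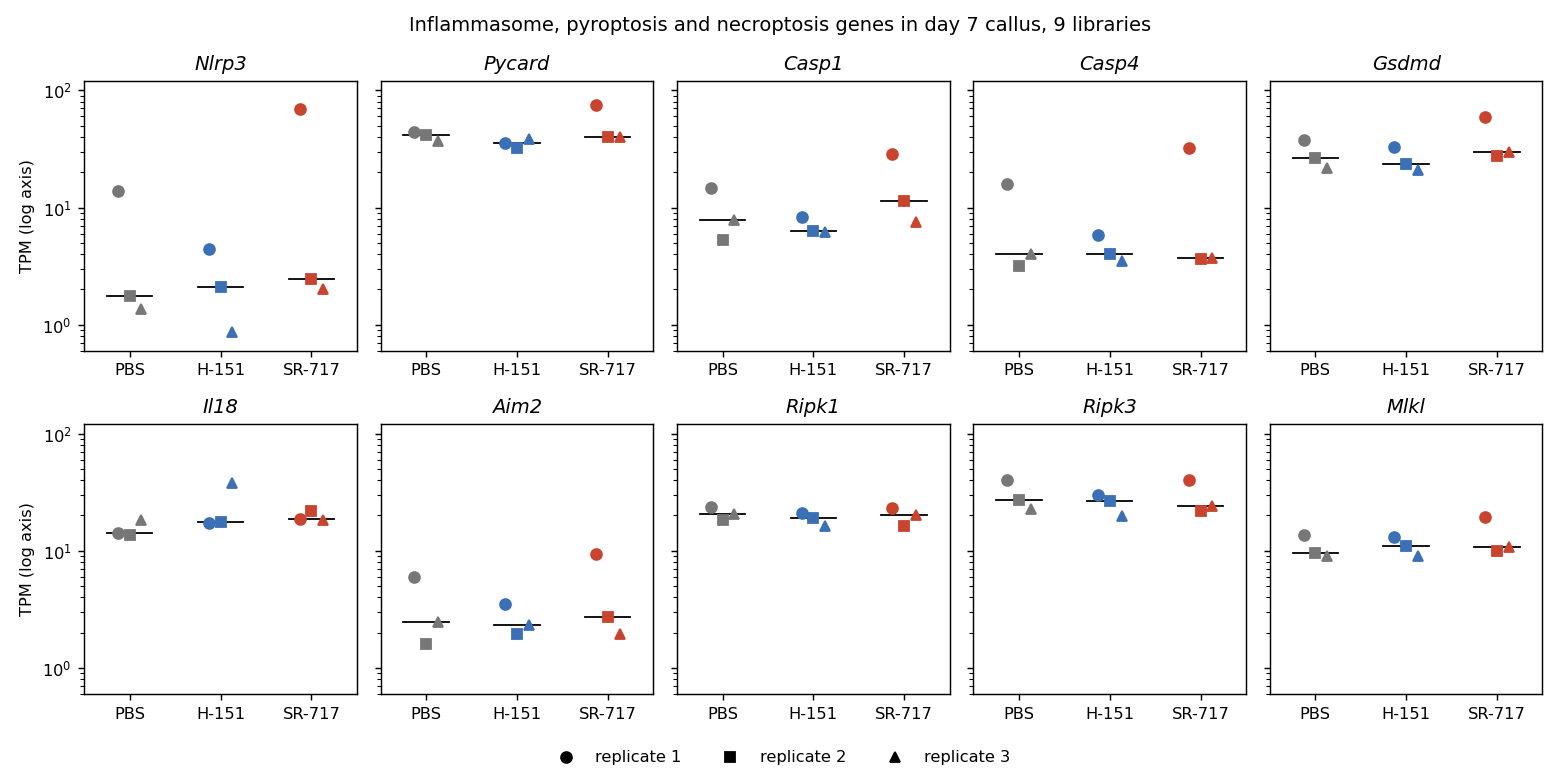
TPM of each of the 10 genes on a log axis, with the 3 libraries of each group as points (circle, square and triangle for replicates 1, 2 and 3) and a bar at the group median. SR-717 replicate 1 is the highest point in 8 of the 10 panels and PBS replicate 1 the second highest in 8. The group medians lie close together in most panels. For Casp1 the median is 11.5 TPM with SR-717, 7.78 with PBS and 6.34 with H-151.

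SR-717 replicate 1 held the highest TPM for 8 of the 10 genes, a place it held for 19.4% of the 14294 genes kept in a fit of all 9 libraries. PBS replicate 1 held the second highest for 8 of the 10, against 16.5% of all genes. Of the exceptions, Ripk1 was highest in PBS replicate 1 and Il18 in H-151 replicate 3. With CPM in place of TPM, SR-717 replicate 1 was highest for 9 of the 10, since Ripk1 then also peaked there, and Il18 was again the exception. The share of all genes highest there on CPM was not determined, and the shares above are for TPM.

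Of the sensors, Nlrp3, on chr11:59541568-59566956 on the plus strand of GRCm38, showed the widest spread. Its TPM was 13.9, 1.75 and 1.35 in PBS replicates 1, 2 and 3, it was 4.40, 2.08 and 0.869 in the H-151 replicates, and it was 69.9, 2.46 and 2.02 in the SR-717 replicates. SR-717 replicate 1 was thus far above all others, 5.03 times the next library and 80.4 times the lowest, and the remaining SR-717 libraries fell inside the range of both other groups. Without SR-717 replicate 1 and PBS replicate 1 the highest library was 5.06 times the lowest. The SD of log2 CPM over the 9 libraries was 1.97, larger than that of 99.4% of all genes, and 0.59 over the 7 libraries without these 2, still larger than that of 87.5%.

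Aim2, the sensor of cytosolic DNA, is annotated on chr1:173350879-173466040 on the plus strand and overlaps Cadm3 on the opposite strand. Its TPM was 6.01, 1.59 and 2.46 with PBS, 3.50, 1.95 and 2.31 with H-151, and 9.39, 2.70 and 1.94 with SR-717. The order of the top 3 libraries was that of Nlrp3, and the groups overlapped. Its SD of log2 CPM fell from 0.91 over 9 libraries to 0.33 over 7. Whether the counting used strand is not stated, so reads of overlapping genes may be shared here and in Pycard, Il18, Ripk1 and Mlkl, each of which also overlaps at least 1 annotated gene.

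The adaptor gene Pycard (chr7:127989708-127993867, minus strand) was, on log2 CPM, the steadiest member over the 7 libraries without SR-717 replicate 1 and PBS replicate 1. Its TPM was 44.4, 41.6 and 36.9 with PBS, 35.7, 32.1 and 38.6 with H-151, and 74.9, 39.6 and 40.2 with SR-717. Of its 3 groups, SR-717 and H-151 did not overlap in TPM, although by a margin of little more than 1 TPM outside replicate 1, and on the CPM scale they did overlap. Over those 7 libraries its log2 CPM had an SD of 0.05, and 0.252% of all genes had a lower one. In TPM the highest of those libraries was 1.29 times the lowest for Pycard and 1.28 times for Ripk1, so this place depended on the scale.

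The caspase genes Casp1 (chr9:5298517-5307265) and Casp4 (chr9:5308828-5336783) are neighbours on the plus strand. Casp1 stood at 14.6, 5.27 and 7.78 TPM with PBS, 8.22, 6.34 and 6.21 with H-151, and 28.7, 11.5 and 7.48 with SR-717. SR-717 replicate 2 also lay above all H-151 libraries, although below PBS replicate 1, and the groups overlapped in TPM. Casp4 stood at 15.8, 3.15 and 4.02 TPM with PBS, 5.84, 3.97 and 3.52 with H-151, and 31.9, 3.63 and 3.70 with SR-717. Here SR-717 replicates 2 and 3 lay between the lowest and the highest library of each other group, and after SR-717 replicate 1 and PBS replicate 1 the next library was H-151 replicate 1. The SD of log2 CPM was 1.17 for Casp4 and 0.80 for Casp1 over 9 libraries, and 0.28 and 0.35 over 7, against a median over all genes of 0.31 and 0.24.

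Gsdmd (chr15:75862327-75867408, plus strand), the gene of the pore-forming protein, had TPM of 37.7, 26.6 and 21.8 with PBS, 32.9, 23.6 and 21.0 with H-151, and 58.9, 27.4 and 29.6 with SR-717. In each group replicate 1 was the highest. Its range was 2.81-fold over the 9 libraries, and 1.57-fold without SR-717 replicate 1 and PBS replicate 1.

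Il18 (chr9:50554827-50581840, plus strand), the cytokine gene, followed another order. Its TPM was 14.2, 13.5 and 18.3 with PBS, 17.1, 17.5 and 38.1 with H-151, and 18.7, 22.0 and 18.3 with SR-717. H-151 replicate 3, the library with the lowest Nlrp3, was the high one, and SR-717 replicate 1 ranked 3 of 9. Leaving out SR-717 replicate 1 and PBS replicate 1 did not narrow its spread, with an SD of log2 CPM of 0.48 over 9 libraries and 0.51 over 7.

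Among the necroptosis genes, Ripk1 (chr13:34002363-34037147, plus strand) had TPM of 23.8, 18.3 and 20.7 with PBS, 20.9, 19.2 and 16.3 with H-151, and 23.3, 16.4 and 20.3 with SR-717, so that no library stood out and the groups overlapped throughout. Ripk3 (chr14:55784995-55788865, minus strand) had 39.9, 27.3 and 22.6 with PBS, 30.1, 26.4 and 19.8 with H-151, and 40.1, 21.6 and 24.0 with SR-717, with SR-717 replicate 1 and PBS replicate 1 all but level at the top. Mlkl (chr8:111311797-111338177, minus strand), the gene of the executor, had 13.6, 9.52 and 8.95 with PBS, 13.1, 11.0 and 8.97 with H-151, and 19.5, 9.85 and 10.7 with SR-717. Replicate 1 was the highest of its group for all 3 genes in all 3 groups. The SD of log2 CPM over 9 libraries was 0.18 for Ripk1, 0.33 for Ripk3 and 0.39 for Mlkl, and 0.12 to 0.14 over 7, while that of Pycard was 0.38 over 9, just under that of Mlkl, and over 7 lower than those of all 3.

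**Figure D2:**
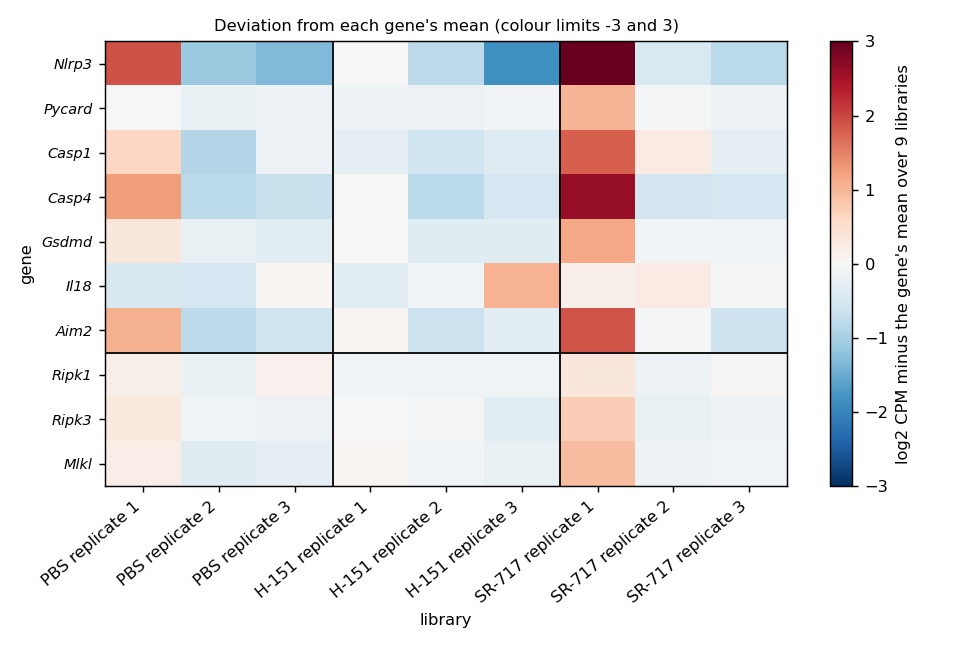
Log2 CPM of each gene in each library minus the gene's own mean over the 9 libraries, with red above and blue below the mean and a line between the inflammasome genes and the 3 necroptosis genes. The SR-717 replicate 1 column is red for the genes other than Il18 and Ripk1, which are pale there, and Il18 is reddest in H-151 replicate 3.

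Across libraries most members moved with Nlrp3, as a description over 9 libraries that share 2 outlying ones. Pearson's r of log2 CPM with Nlrp3 was 0.98 for Gsdmd, 0.97 for Casp4 and Ripk3, 0.96 for Aim2 and Mlkl, 0.92 for Casp1, 0.89 for Pycard, 0.78 for Ripk1 and -0.21 for Il18. Over the 7 libraries without SR-717 replicate 1 and PBS replicate 1 the value was 0.84 for Gsdmd, 0.69 for Mlkl and 0.67 for Ripk3, between 0.29 and 0.55 for Casp1, Casp4 and Aim2, 0.02 for Pycard, -0.15 for Ripk1 and -0.60 for Il18. The values for Pycard, Casp1 and Ripk1 therefore rested on the 2 libraries. The genes outside the pathway lists whose pattern over the 9 libraries was most like that of Nlrp3 were Tlr2 (r = 0.998), Ifitm1 and Ikbke (both 0.994), and over the 7 libraries their r was 0.98, 0.96 and 0.93. Those most like the mean of the 10 genes were Alcam (0.994), Lilrb4b (0.993), Rab20 (0.992), Tpd52 and Fnip2 (both 0.991), with r over the 7 libraries of 0.90, 0.95, 0.83, 0.95 and 0.76. Tlr2, a receptor for bacterial lipoproteins on myeloid cells, stood at 124 TPM in SR-717 replicate 1, 51.7 in PBS replicate 1 and 9.87 to 25.7 elsewhere.

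Promoter sequence was read for every member with a RefSeq start site on GRCm38.p6, whether or not it moved with Nlrp3. Start sites were given for 9 of the 10 genes (12 entries, with none for Gsdmd). Up to 250 bases before the start were searched on both strands for 3 motifs. These were the κB consensus of NF-κB, the core of the ISRE of interferon response and the GAS core TTCNNNGAA of STAT factors. Several windows were shorter without bases of annotated exons, such as 217 bases for Aim2 and 79 for the Ripk1 window with the GAS core. The entries counted below are thus of unequal length. A κB match was found in 3 of the 12 entries, which are both entries of Casp4 and 1 of Nlrp3, against 7.25% of 32851 promoters. The Casp4 windows, chr9:5308599-5308827 and chr9:5308610-5308827, overlap almost wholly and hold the same matches, so that 1 stretch of sequence is counted under both entries. The ISRE core was in 0 of 12 (2.98% of all promoters), and the GAS core was in 1 of 12, an entry of Ripk1 (7.02% of all). A window with a κB match is shown for Casp4 and for Nlrp3, the genes with the 2 largest spreads. A window without a match is shown for Ripk1, the gene with the smallest. The printed windows were thus chosen by their matches too. Not printed are the other Nlrp3 window, chr11:59542436-59542685, which held none of the 3 motifs, and the Ripk1 window with the GAS core. A link between matches and spread was not tested. They are printed 5′ to 3′ on the gene's strand, without bases of annotated exons and with κB matches in capitals.
Casp4, chr9:5308599-5308827, plus strand: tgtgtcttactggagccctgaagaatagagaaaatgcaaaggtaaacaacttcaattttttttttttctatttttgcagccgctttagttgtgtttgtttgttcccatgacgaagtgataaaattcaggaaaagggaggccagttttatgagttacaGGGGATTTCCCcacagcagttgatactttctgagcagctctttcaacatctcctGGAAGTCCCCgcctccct
Nlrp3, chr11:59541319-59541567, plus strand: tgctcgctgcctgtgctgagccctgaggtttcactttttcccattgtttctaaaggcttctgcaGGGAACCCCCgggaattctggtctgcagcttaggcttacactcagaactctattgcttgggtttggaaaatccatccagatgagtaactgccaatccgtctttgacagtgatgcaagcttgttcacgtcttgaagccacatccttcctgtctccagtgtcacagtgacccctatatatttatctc
Ripk1, chr13:34002113-34002362, plus strand: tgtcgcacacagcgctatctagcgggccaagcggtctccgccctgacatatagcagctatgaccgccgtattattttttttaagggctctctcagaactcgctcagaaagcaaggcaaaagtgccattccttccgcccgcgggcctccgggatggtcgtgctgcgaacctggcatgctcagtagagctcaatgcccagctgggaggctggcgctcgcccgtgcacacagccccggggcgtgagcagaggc
In Casp4 the matches begin 93, 92 and 39 bases before the start site of this entry, the first 2 of them overlapping, and in Nlrp3 the match begins 186 bases before it. A match describes the letters of the window only. The Aim2, Casp1, Il18, Mlkl and Ripk3 windows held none of the 3 motifs. No match was recorded for Pycard either, but no sequence of its window was available to read, although it counts among the 12 entries.

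SR-717 against H-151, the contrast of agonist and inhibitor, gave positive log2 fold changes for 9 of the 10 genes, Il18 being the exception, but none passed a threshold by edgeR. The first rule counted genes at an unadjusted p under 0.05 with a change of at least 1.5-fold. By it, edgeR's quasi-likelihood test called 0 of 10, against 0.756% of the 14151 genes tested. At an adjusted p under 0.05 it called 0 of 10 and 0 of the 14151 genes. At an unadjusted p under 0.05 alone, edgeR also called 0 of 10, against 1.03% of all genes. DESeq2 called 1 of the 8 members to which it gave a p, Casp1, against 1.49% of all genes, and by default set Nlrp3 and Casp4 aside for an outlying count. With such genes kept it called 3 of 10, Nlrp3, Casp1 and Casp4, against 2.08% of all genes. At an adjusted p under 0.05 it then called none of the 10 and 1 of the 14151 genes. Without SR-717 replicate 1 that test called 0 of 10, with log2 fold changes of 0.054 (SE 0.56) for Nlrp3, 0.43 (SE 0.31) for Casp1 and -0.16 (SE 0.43) for Casp4. The median log2 fold change of the 10 genes was 0.59, beside 0.019 for all genes tested.

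Nlrp3 had both the largest change and the lowest p. From means of 24.8 ± 39.0 TPM (SD, n = 3) for SR-717 and 2.45 ± 1.79 TPM (SD, n = 3) for H-151, edgeR gave a log2 fold change of 3.63 with a standard error (SE) of 1.53 (adjusted p = 0.996). Casp1 came next by p, at 1.29 (SE 0.55), and Casp4 next by size, at 1.74 (SE 0.94). The other log2 fold changes were 1.12 for Aim2, 0.68 for Gsdmd, 0.50 for Pycard, 0.38 for Mlkl, 0.29 for Ripk3, 0.17 for Ripk1 and -0.22 for Il18, with standard errors between 0.16 and 0.69, and the adjusted p of every member was 0.996 in this fit.

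These values rested on SR-717 replicate 1. Without it the log2 fold change was 0.057 (SE 0.51) for Nlrp3, -0.16 (SE 0.33) for Casp4, -0.028 (SE 0.36) for Aim2, 0.13 (SE 0.16) for Gsdmd and 0.020 (SE 0.13) for Pycard. Casp1 retained the largest value, 0.43 (SE 0.25). The necroptosis genes then lay at 0.026 for Ripk1, -0.089 for Ripk3 and -0.061 for Mlkl. Leaving out SR-717 replicate 2 or SR-717 replicate 3 instead brought Nlrp3 to 4.17 and 4.18 and past the unadjusted threshold, with SR-717 replicate 1 then 1 of 2 libraries in its group. The negative value of Il18 rested on H-151 replicate 3, without which it was 0.33. In TPM, 1 of the 10 genes, Pycard, had every SR-717 library above every H-151 library, against 0.897% of all genes. On log2 CPM it was Casp1 instead, against 2.67% of all genes, but SR-717 replicate 3 and H-151 replicate 1 were there both at 2.64.

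**Figure D3:**
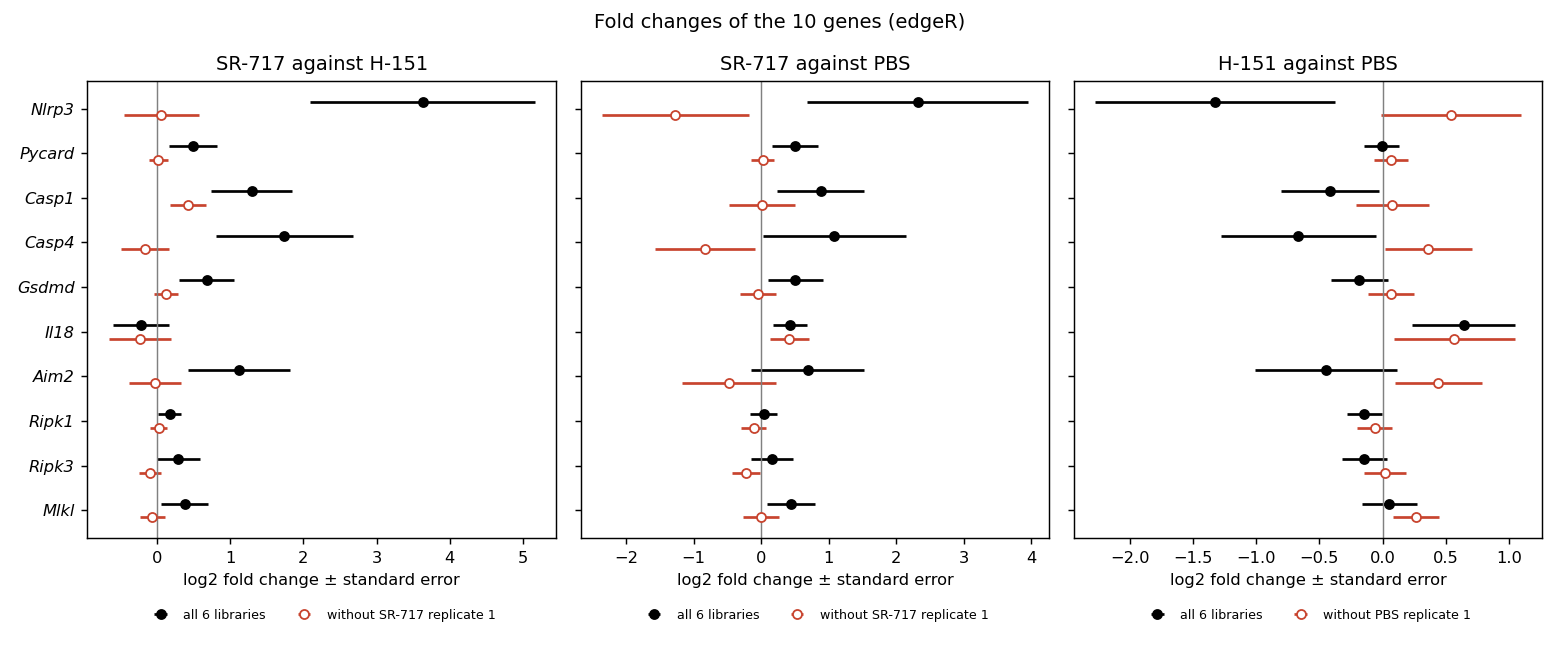
Log2 fold change with its standard error from edgeR for the 10 genes in each comparison, with filled points for all 6 libraries and open points without SR-717 replicate 1 (left and middle) or without PBS replicate 1 (right); the horizontal scales differ between panels. The values of Nlrp3, Casp4 and Aim2 move to or past 0 when the single library is left out, while those of Il18 hardly move.

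SR-717 against PBS asks how callus under the agonist differed from the PBS control. All 10 log2 fold changes were positive, with a median of 0.50 beside 0.014 for all genes. Again edgeR called 0 of 10 at an unadjusted p under 0.05 with 1.5-fold (0.519% of 14070 genes). It called 0 without the fold threshold (0.689% of all genes). At an adjusted p under 0.05 it called 0 of 10 and 0 of the 14070 genes. DESeq2 set Nlrp3 and Casp4 aside and called 0 of the other 8 members, and 138 of 13971 genes. With outlying counts kept it called 0 of 10, and 155 of 14070 genes. The largest value was that of Nlrp3, at 2.32 (SE 1.63, adjusted p = 1.00 by edgeR), from means of 24.8 ± 39.0 and 5.66 ± 7.12 TPM (SD, n = 3 each). The lowest p was that of Il18, at 0.43 (SE 0.25, adjusted p = 1.00 by edgeR), from means of 19.6 ± 2.03 and 15.3 ± 2.59 TPM (SD, n = 3 each). Without SR-717 replicate 1 Il18 was little changed, at 0.42, whereas Nlrp3 turned to -1.27 (SE 1.09), Casp4 to -0.83 (SE 0.74) and Aim2 to -0.47 (SE 0.69). PBS replicate 1, the other library that stood apart, was still in the PBS group in that fit. With both libraries out, Nlrp3 was at 0.62 (SE 0.31), Casp1 at 0.51 (SE 0.38) and Il18 at 0.35 (SE 0.31). No member had groups that did not overlap in TPM, against 5.25% of all genes.

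In this comparison the deviations of same-numbered libraries correlated over all genes, and the replicate number was also fitted as a block. These deviations were taken from group means. SR-717 replicate 1 and PBS replicate 1, which stood apart and share a number, therefore shape the correlations at every number. Whether the numbers pair the libraries cannot be told from them. With the block, Nlrp3 passed the unadjusted threshold, at a log2 fold change of 1.29 (SE 0.47, adjusted p = 0.999 by edgeR). It was 1 of 10 members called, against 3.15% of all genes. With number 1 left out of both groups the blocked value was 0.61 (SE 0.34) and no member was called (0.953% of all genes). Its TPM was higher with SR-717 than with PBS at every number, by ratios of 5.03, 1.41 and 1.5. Gsdmd and Mlkl were also higher at every number, with ratios of 1.56, 1.03 and 1.36 for Gsdmd and of 1.44, 1.03 and 1.20 for Mlkl. The share of all genes with the same direction at every number was not determined, so these ratios are a description only. Ripk1 was lower in TPM at every number, at 0.980, 0.894 and 0.982, although its fitted value on the CPM scale was 0.036 (SE 0.19), so that its direction depended on the scale.

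H-151 against PBS asks how callus under the inhibitor differed from the PBS control. Only 2 of the 10 log2 fold changes, those of Il18 and Mlkl, were positive, with a median of -0.165 beside -0.025 for all genes. Of the 10, edgeR called 0 at an unadjusted p under 0.05 with 1.5-fold (0.426% of 14085 genes). It called 0 without the fold threshold (0.646% of all genes). At an adjusted p under 0.05 it called 0 of 10 and 0 of the 14085 genes. DESeq2 called 0 of 10, against 0.59% of all genes. Nlrp3 had the largest value, -1.32 (SE 0.95, adjusted p = 1.00 by edgeR), from means of 2.45 ± 1.79 and 5.66 ± 7.12 TPM (SD, n = 3 each). Without PBS replicate 1 it was 0.54 (SE 0.55), and Casp4 moved from -0.67 (SE 0.61) to 0.36 (SE 0.34) and Aim2 from -0.44 (SE 0.56) to 0.44 (SE 0.34). Il18 had the lowest p, at 0.64 (SE 0.40, adjusted p = 1.00 by edgeR), from means of 24.2 ± 12.0 and 15.3 ± 2.59 TPM (SD, n = 3 each). Its TPM was higher with H-151 at every number, by ratios of 1.21, 1.29 and 2.08, but without H-151 replicate 3 its fitted value was 0.091. Gsdmd, with ratios of 0.874, 0.889 and 0.961, and Ripk3, with ratios of 0.753, 0.967 and 0.873, were lower with H-151 at every number. Here too the share of all genes with the same direction at every number was not determined. No groups were free of overlap in TPM, against 3.32% of all genes, and a fit with the replicate block called 0 of 10, against 1.86% of all genes.

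Since the 3 comparisons share libraries, their values are not independent: the SR-717 libraries enter both contrasts in which Nlrp3, Casp1, Casp4 and Aim2 had their largest positive values, and PBS replicate 1 enters both contrasts with PBS.

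**Figure D4:**
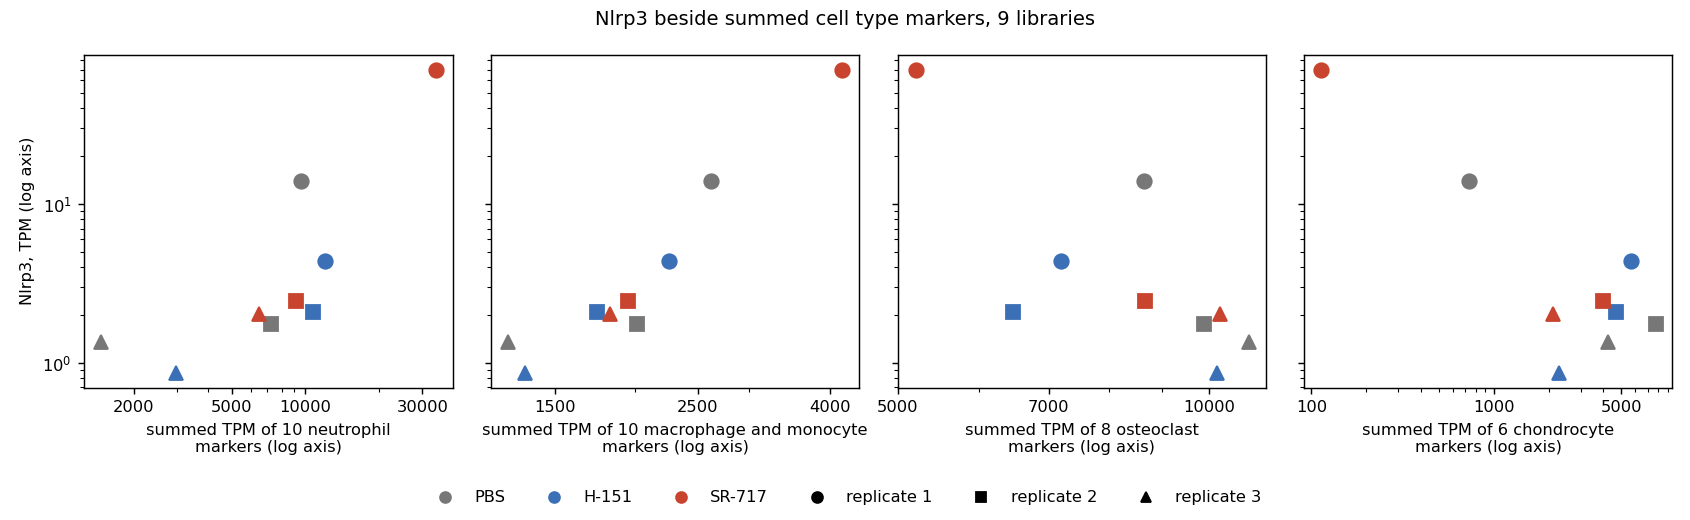
TPM of Nlrp3 (vertical, log axis) beside the summed TPM of neutrophil, macrophage and monocyte, osteoclast and chondrocyte markers (horizontal, log axes) in the 9 libraries, coloured by group and shaped by replicate number. SR-717 replicate 1 is at the upper right for neutrophil and macrophage markers and at the upper left for chondrocyte and osteoclast markers; PBS replicate 1 holds the second highest Nlrp3 but only the fourth highest neutrophil sum.

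Of the myeloid marker genes, S100a8 and S100a9, which are abundant in neutrophils, stood at 8607 and 17042 TPM in SR-717 replicate 1, and at 2554 and 4469 in PBS replicate 1, where they were level with H-151 replicate 1 (2571 and 4796). Nlrp3 in that H-151 library was 4.40 TPM and in PBS replicate 1 it was 13.9. Cd14, a lipopolysaccharide co-receptor of monocytes and activated neutrophils, separated these libraries as Nlrp3 did, at 782 TPM in SR-717 replicate 1, 266 in PBS replicate 1 and 73.3 in H-151 replicate 1. Adgre1, which encodes the macrophage antigen F4/80, stood at 139.5, 76.4 and 55.1 TPM in the same libraries.

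The members were set beside 55 other genes of the same pathways, in 4 groups by role. In SR-717 against H-151, edgeR called none of the 51 that could be tested at an adjusted p under 0.05, and 0 of 14151 genes. At an unadjusted p under 0.05 with 1.5-fold it called 2 of the 51 higher and 0 lower, where 0.367% of all genes were called higher. Both encode cytokines: Il1a, an alarmin released by lytic death, at a log2 fold change of 5.71 (SE 2.12, adjusted p = 0.996 by edgeR), and Tnf, a trigger of necroptosis, at 3.37 (SE 1.33, adjusted p = 0.996 by edgeR). Without SR-717 replicate 1 neither was called, at 0.26 (SE 0.45) for Il1a and 0.38 (SE 0.34) for Tnf, and edgeR called 0 of the 51. It also called 0 without any 1 of the H-151 libraries, 5 without SR-717 replicate 2 and 10 without SR-717 replicate 3, all higher. Over all genes, the fits without SR-717 replicate 2 and without SR-717 replicate 3 called 214 and 544 higher. In SR-717 against PBS (0 of 51) and in H-151 against PBS (0 of 50) edgeR called none, and none had an unadjusted p under 0.05 by edgeR. With the replicate block edgeR called 7 of the 51 in SR-717 against PBS, all higher (Il18rap, Il1a, Il1b, Il1rn, Mefv, Naip2 and Nlrp12), against the 3.15% of all genes given above, and with number 1 left out 1, Il1b. With single libraries left out and no block, it called 0 to 2 in SR-717 against PBS and 0 to 4 in H-151 against PBS. The 2 came without SR-717 replicate 3, where 319 genes of the table were called. The 4 came without PBS replicate 2, where 698 were called. DESeq2 called Tnf in H-151 against PBS, 1 of the 49 genes to which it gave a p against 0.59% of all genes, at a log2 fold change of -1.57 (SE 0.80, adjusted p = 1.00), which was 0.050 (SE 0.49) without PBS replicate 1. In SR-717 against PBS it called none of the 45 to which it gave a p, and 138 of 13971 genes. In SR-717 against H-151 it called 0 of the 45 to which it gave a p, and set 6 aside by default for an outlying count (Il1a, Il1b, Il1rn, Mefv, Tnf and Tnfaip3). With such genes kept it called those 6, all higher, or 6 of 51 against 2.08% of all genes, none of them at an adjusted p under 0.05, and without SR-717 replicate 1 it called 0. The libraries show the pattern of Nlrp3: Il1a stood at 65.6 TPM in SR-717 replicate 1, at 8.94 in PBS replicate 1 and at 0.203 to 0.663 in the other 7. Of the 51, 33 were highest in SR-717 replicate 1.

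The cytokine genes differed widely between libraries. Il1b, whose product caspase-1 matures, stood at 271, 12.4 and 5.46 TPM with PBS, 75.5, 25.7 and 7.49 with H-151, and 1660, 30.1 and 17.7 with SR-717. Il1rn, the gene of the receptor antagonist, stood at 286, 34.1 and 22.7 with PBS, 89.4, 36.2 and 24.9 with H-151, and 1038, 41.3 and 36.0 with SR-717. The agonist and the antagonist of the interleukin-1 receptor were thus high in the same libraries, and neither passed the threshold by edgeR in SR-717 against H-151 (log2 fold changes 4.20, SE 1.93, and 3.13, SE 1.44). Il18bp, which encodes the secreted inhibitor of the Il18 product, did not follow Il18 but was highest in SR-717 replicate 1, at 50.5 TPM against 5.72 to 18.5 elsewhere.

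Among the sensors and regulators, 8 of the 14 tested were highest in SR-717 replicate 1. Mefv, the gene of pyrin, resembled Nlrp3, at 52.6 TPM in SR-717 replicate 1, 17.7 in PBS replicate 1 and 2.10 to 7.22 elsewhere. Nek7, whose product binds NLRP3 in the assembled complex, did not: it was highest in PBS replicate 3, at 23.4 TPM, and ran from 8.07 to 19.2 in the others. Txnip, a regulator linked to NLRP3, was abundant, at 233, 198 and 166 TPM with PBS, 262, 243 and 201 with H-151, and 281, 278 and 217 with SR-717. In SR-717 against PBS its log2 fold change was 0.49 (SE 0.21), which edgeR did not call. It was called higher there without PBS replicate 1 or without SR-717 replicate 3, but not without SR-717 replicate 1. Of the other gasdermin genes, Gsdme stood at 3.77 to 14.7 TPM, while Gsdma, Gsdmc and Gsdmc2 had too few counts to be tested and none of them exceeded 0.320 TPM. Ninj1, which encodes the protein that ruptures the membrane after pore formation, stood at 387 TPM in SR-717 replicate 1 and at 93.4 to 178 in the others.

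In the necroptosis group, some genes were high in the same libraries as Nlrp3 and others were level. Zbp1, a nucleic acid sensor that engages RIPK3, stood at 118 TPM in SR-717 replicate 1, 48.6 in PBS replicate 1 and 10.9 to 35.7 elsewhere. Tnfaip3, the gene of the NF-κB inhibitor A20, stood at 84.2, 31.7 and 6.89 to 10.6 TPM in the same order. The adaptor genes Tradd and Fadd stayed within 16.7 to 19.4 and 6.00 to 9.26 TPM, and Otulin, which encodes a linear deubiquitinase, within 47.5 to 57.3. Casp8, whose product restrains necroptosis, stood at 36.8 to 61.7 TPM, with its highest library PBS replicate 1.

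**Figure D5:**
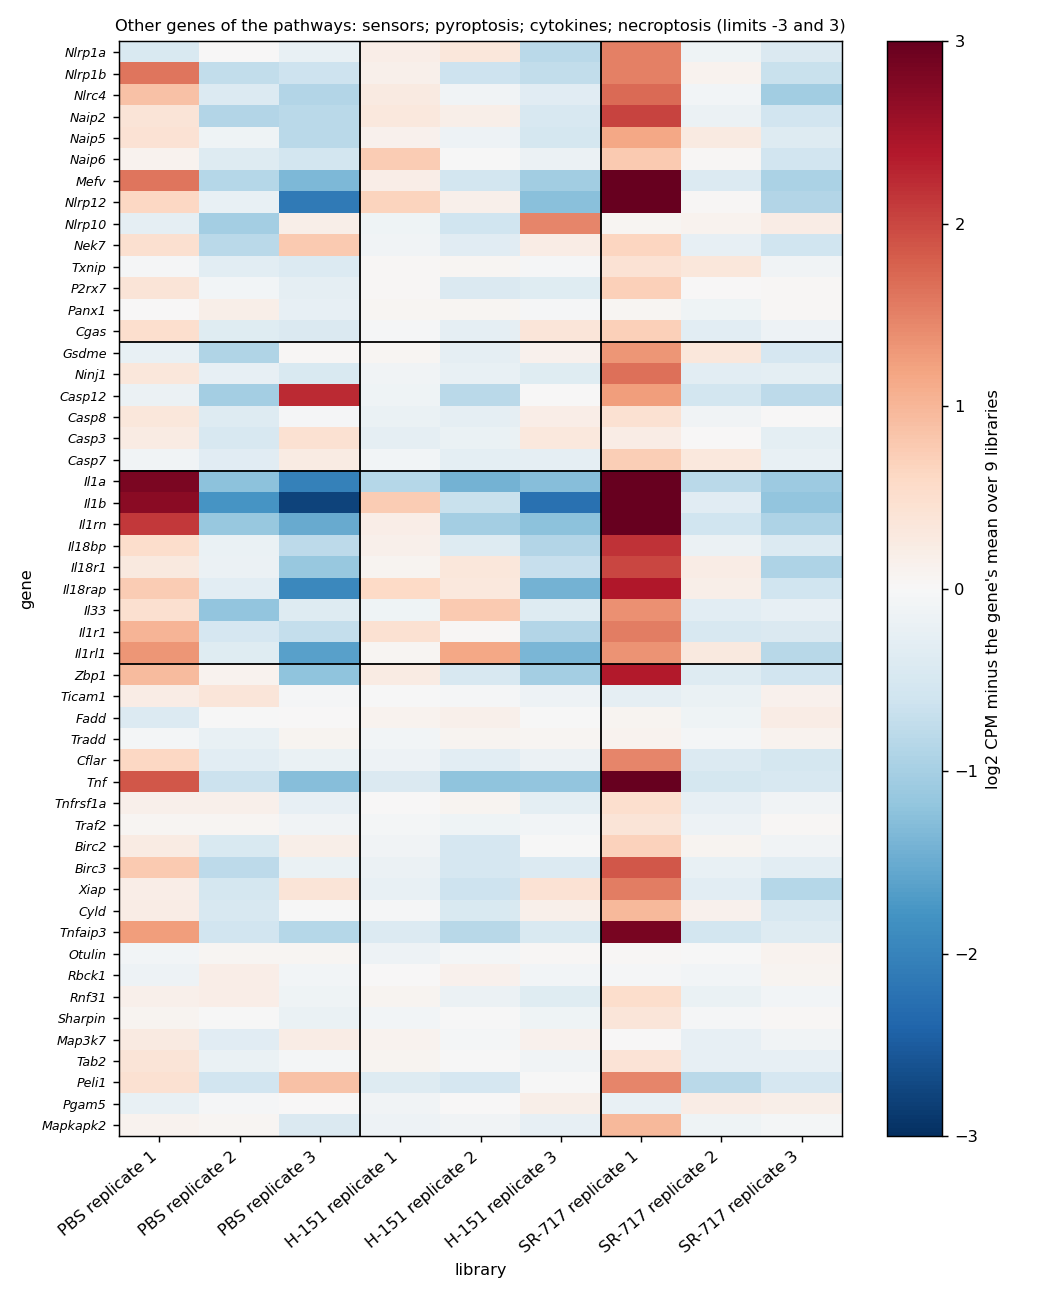
Log2 CPM of the 51 other pathway genes that could be tested, each minus its mean over the 9 libraries, with lines between sensors and regulators, pyroptosis, cytokines and their receptors, and necroptosis. Red cells gather in SR-717 replicate 1 for Il1a, Il1b, Il1rn, Mefv, Tnf and Tnfaip3 and, paler, in PBS replicate 1, while Casp12 is reddest in PBS replicate 3.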

How the data were processed

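Total RNA of day 7 callus was sequenced in 9 libraries (3 per group), poly(A)-selected and strand-specific per the labels, whose extraction text speaks of cell lines although the tissue is given as bone. The authors deposited expected counts per gene, not normalized, and TPM values. The submitters' processing notes name the build mm10. Aligner and counter are not given in the sources used here. Groups came from the treatment label.

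Expected counts (8.91% not whole) were rounded. The quasi-likelihood test of edgeR 4.0.16 (R 4.3.3) was run on the 6 libraries of each comparison after filterByExpr (minimum count 10, total 15) and TMM scaling, with no covariate and with Benjamini-Hochberg adjustment. SE is the log2 fold change over the root of F. Calls used an unadjusted p under 0.05 with 1.5-fold, after the study's thresholds, or an adjusted p under 0.05. Log2 CPM used a prior count of 2. The code was tested on simulated data. DESeq2 1.42.0 (with and without its outlier handling, and without the library its calls rest on), other filters and scalings, all 9 libraries in 1 fit, a replicate block and leaving out libraries were alternatives. A library held 16987388 to 23272479 counts, and a member 31 to 3195, which limits the precision of the low genes.

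Deviations of same-numbered libraries correlated at 0.34, 0.06 and 0.08 in SR-717 against H-151, at 0.65, 0.34 and 0.14 in SR-717 against PBS and at 0.30, 0.49 and 0.50 in H-151 against PBS. The block rests on the replicate numbers of the labels, and a pairing was taken as possible where all 3 exceeded 0.1. The deviations were taken from group means, so the 3 values of a comparison are not independent. Libraries that stand apart under the same number can raise all of them, and they do not establish a pairing. The 10 genes, 55 pathway genes and 12 marker lists were chosen with earlier results of these data known. Genes named besides the 10 were pathway genes that were called or whose role is explained, marker genes, the 5 genes most like the mean of the 10 and the 3 most like Nlrp3. Gene positions are from GENCODE (GRCm38) by Ensembl identifier, 10 of 10 matched.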

Additional observations from a re-analysis of the deposited data

How the results depend on the processing

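Under the alternatives, members called in SR-717 against H-151 went from 0 to 1 with DESeq2's Wald test (Casp1), to 3 when that test kept genes with an outlying count (Nlrp3, Casp1 and Casp4, an alternative added after seeing the data), to 2 without a filter on low counts or with all 9 libraries in 1 fit (Nlrp3 and Casp1 in both), and it ran from 0 to 3 with single libraries left out. The 3 calls came without SR-717 replicate 2 (Nlrp3, Casp1, Casp4) or SR-717 replicate 3 (Nlrp3, Casp1, Aim2), where 384 and 661 genes of the table were called. In SR-717 against PBS the number was 1 with the replicate block (Nlrp3) and 0 to 1 with single libraries left out (Il18, at 0.64, without PBS replicate 3). In H-151 against PBS it was 0 under every alternative run, the replicate block included.

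The genes called across the table, 107 in SR-717 against H-151, became 209 with DESeq2's Wald test, 294 with outlying counts kept, 223 without the filter, 61 at a mean count of at least 50, 171 with 9 libraries in 1 fit, 143 with the replicate block, 0 at an adjusted p under 0.05, and 64 to 661 with single libraries left out. Here the correlations of same-numbered libraries were mostly low, and the block called 0 of the 10 genes. DESeq2 gave Nlrp3 and Casp4 no p in either comparison with SR-717 by default, so its counts of members there are over 8 genes. For SR-717 against PBS, 73 became 138, 155, 194, 37, 176, 443 and 0 in the same order, 118 without SR-717 replicate 1 and PBS replicate 1, and 95 to 319 with single libraries left out. For H-151 against PBS, 60 became 127 without the filter, 28 at a mean count of at least 50, 262 with the block, 0 at an adjusted p under 0.05, and 43 to 698 with single libraries left out. Further alternatives were added after seeing the data. In SR-717 against PBS the replicate block called 135 genes with number 1 left out, and Ripk1 was then at -0.017 and Ripk3 at -0.053. With outlying counts kept, DESeq2 called 163 genes in H-151 against PBS without PBS replicate 1, where Nlrp3 was at 0.55, Pycard at 0.072, Casp1 at 0.084, Casp4 at 0.37, Gsdmd at 0.074, Aim2 at 0.45 and Ripk3 at 0.026. In SR-717 against H-151 without SR-717 replicate 1 it gave -0.16 for Casp4, -0.031 for Aim2, -0.092 for Ripk3 and -0.064 for Mlkl. These 3 fits called 0 members. The causes were not tested. The block changed no other call of a member.

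Signs turned mainly when a single library was left out. In SR-717 against H-151 the log2 fold change then ran from -0.16 to 2.20 for Casp4, from -0.46 to 0.33 for Il18, from -0.028 to 1.53 for Aim2, from -0.089 to 0.46 for Ripk3 and from -0.061 to 0.56 for Mlkl. In SR-717 against PBS it ran from -1.27 to 4.17 for Nlrp3, from -0.83 to 2.10 for Casp4, from -0.049 to 0.74 for Gsdmd, from -0.47 to 1.57 for Aim2, from -0.11 to 0.15 for Ripk1 and from -0.22 to 0.33 for Ripk3. In H-151 against PBS it ran from -1.86 to 0.54 for Nlrp3, from -0.035 to 0.065 for Pycard, from -0.71 to 0.075 for Casp1, from -1.01 to 0.36 for Casp4, from -0.32 to 0.066 for Gsdmd, from -0.76 to 0.44 for Aim2, from -0.24 to 0.018 for Ripk3 and from -0.043 to 0.27 for Mlkl. Besides these, Ripk1 was at -0.021 and Ripk3 at -0.054 in SR-717 against PBS without SR-717 replicate 1 and PBS replicate 1, and Pycard was at 0.002 in H-151 against PBS at a mean count of at least 50. With 3 libraries a group and 1 of them far from the rest, the standard errors leave room for changes of either sign in most members.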
